A study of Sus scrofa with 6 samples.

Results

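Expression of genes known for calcium and phosphate balance, bone formation and the control of mineral was measured in aortic valve leaflets of female and castrated male pigs. Of 10 listed genes, 7 had a probe set named for them by the annotation of the array, and these were STC1, PTHLH, CDH11, SPP1, MGP, ALPL and IBSP. They had 11 probe sets in all, out of 23999 probe sets other than controls, with 3 each for STC1 and CDH11 and 1 for each of the other genes. The supplementary gene list of the study names 3 of these probe sets too and adds no further one. STC2, RUNX2 and TNFRSF11B had no probe set under this rule and were not analysed here. There were 3 male and 3 female leaflet samples, 1 pig and 1 array each, from mixed-breed animals of 5 months and about 90 kg. All males had been castrated, so sex and castration cannot be told apart. The leaflets of both groups were healthy, were scraped with a scalpel to remove the endothelium, and were not cultured, so each array reads the RNA of a whole leaflet.

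Aortic valve calcification is the deposition of mineral in the leaflet, and valvular interstitial cells (VICs), the fibroblast-like cells of the leaflet, can take on traits of bone-forming cells in that process. Stanniocalcin 1 and parathyroid hormone-related protein are secreted peptides that act near their source, on calcium and phosphate transport and on cartilage and bone growth respectively. Cadherin 11 joins mesenchymal cells to each other, osteopontin and bone sialoprotein bind both mineral and integrins, matrix Gla protein holds back mineral in soft tissue, and tissue-nonspecific alkaline phosphatase removes pyrophosphate, which blocks mineral growth.

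The deposited values are log2 values from robust multi-array analysis (RMA), which corrects the background and sets all arrays to a common distribution. Array medians lay between 7.33 and 7.38, and the 25th percentile of all values was 5.53. RMA gives no detection call, so a value under that percentile is described as low and not as absent. Over all probe sets, the correlation of 2 arrays was 0.987 to 0.993 within a sex and 0.972 to 0.987 between the sexes. The number of arrays limits the precision. Differences are male minus female on the log2 scale from limma, and calls needed both an adjusted p (Benjamini-Hochberg) below 0.05 and a change of 2-fold or more. Each call was made over all probe sets and again over the 10% of probe sets with the highest coefficient of variation (CV, the SD divided by the mean of the 6 log2 values). The study filtered on the CV to leave out values that were too unlike between replicates, but the share and the direction of the filter used here are not given in its methods. Because a CV over all 6 arrays is raised by a sex difference, the filter selects in part on the difference that is then tested. Its adjusted p values are thus not independent of that difference, and the comparison over all probe sets is given first.

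The mineral-related genes differed in how far they separated the sexes. At 6 of their 7 probe sets, STC1, PTHLH and CDH11 were higher in male leaflets by 1.82-fold to 5.42-fold, with no overlap of the sexes. The remaining probe set, of STC1, had a difference of 0.03 with overlap. SPP1, MGP, ALPL and IBSP differed by less than the spread between the arrays of a sex or by at most 1.07-fold. Over all probe sets, 2 of the 11 probe sets were called, both of STC1 and both higher in males, where 0.304% of all 23999 probe sets were called (0.167% higher and 0.138% lower in males). With the CV filter, 3 of the 11 were called, these 2 and 1 of CDH11, where 7.59% of the 2412 probe sets kept were called (4.6% higher and 2.99% lower in males). The filter kept 6 of the 11. The sexes did not overlap at 6 of the 11 probe sets, all higher in males, and 22.4% of all probe sets were without overlap, 11.1% higher and 11.4% lower in males. The means differed by at least 2-fold at 5 of the 11 and at 2.18% of all probe sets. The median difference was 0.87 for the 11 probe sets and -0.01 for all probe sets. Probe sets named for the same gene are not independent, and the genes were listed with results on these arrays known, so these counts are descriptions.

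**Figure D1:**
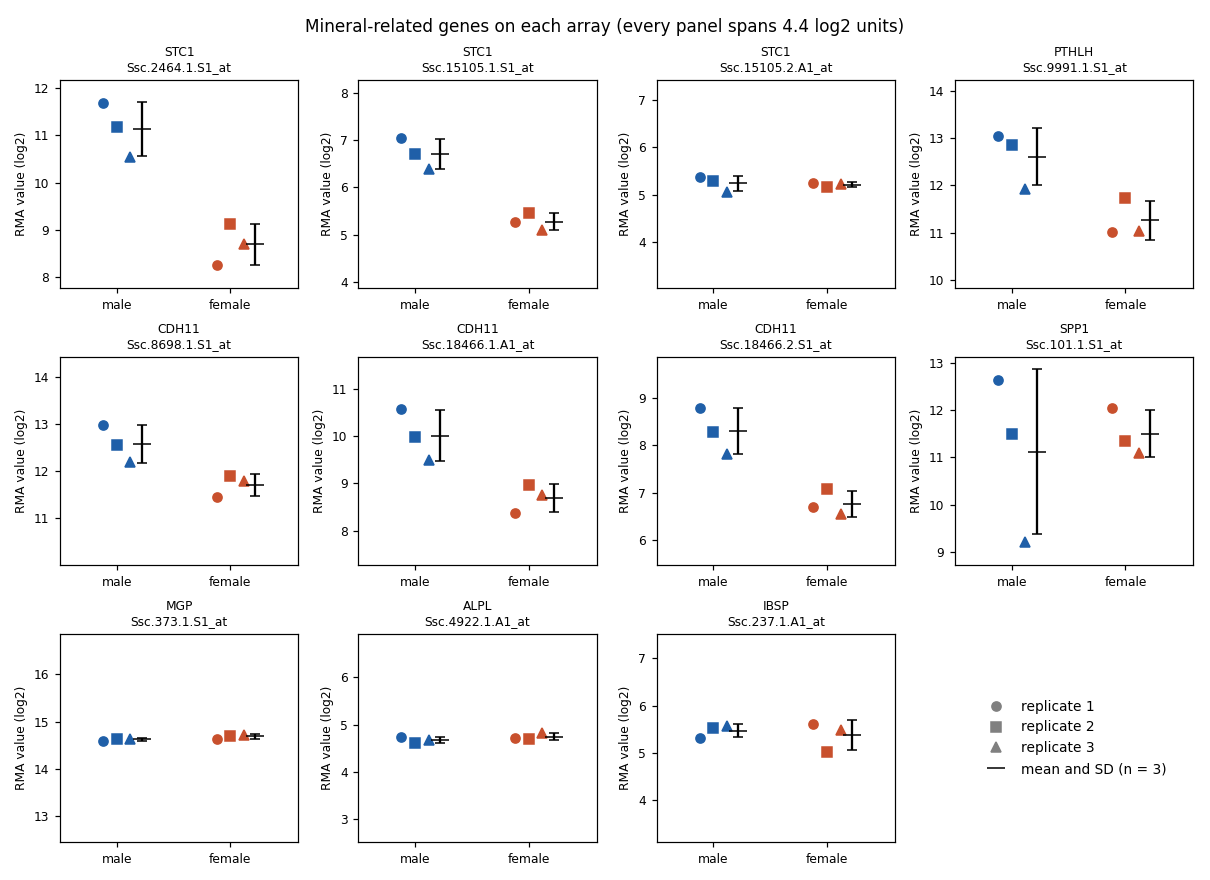
RMA values (log2) of the 11 probe sets on the 3 male (blue) and 3 female (orange) arrays, with a symbol for each replicate and bars for the mean ± SD by sex; every panel spans the same number of log2 units. The male points lie above the female points at 2 STC1 probe sets, PTHLH and the 3 CDH11 probe sets, SPP1 has 1 low male array, and MGP, ALPL and IBSP are level.

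STC1, the secreted hormone stanniocalcin 1, showed the largest difference among these genes. Its probe set Ssc.2464.1.S1_at read 11.68, 11.18 and 10.53 in males and 8.25, 9.13 and 8.70 in females. The lowest male array lay 1.40 above the highest female array. The difference was 2.44 (standard error 0.32, 95% interval 1.67 to 3.20, adjusted p = 0.044 over all probe sets from limma), a 5.42-fold higher level in males with an interval of 3.19-fold to 9.21-fold. After the CV filter, limma gave an adjusted p of 0.00532.
A second STC1 probe set, Ssc.15105.1.S1_at, read 7.04, 6.69 and 6.40 in males and 5.26, 5.45 and 5.09 in females. Here all 3 female arrays were under the 25th percentile of the array and all 3 male arrays above it. The difference was 1.44 (standard error 0.18, adjusted p = 0.0395 over all probe sets and 0.0284 with the CV filter, both from limma), or 2.71-fold against a low female level. The third, Ssc.15105.2.A1_at, read 5.38, 5.28 and 5.06 in males and 5.25, 5.16 and 5.22 in females. It was low on every array, the sexes overlapped, and the difference was 0.03 (95% interval -0.24 to 0.30).
For each probe set whose sexes did not overlap, the exact two-sided permutation p was 0.1, the smallest that 3 against 3 arrays allow. Which part of the transcript each probe set reads was not analysed here. Over all probe sets, both calls were lost on leaving out any array except male replicate 3 (limma's adjusted p reached 0.172 for the first and 0.163 for the second), while the differences stayed at 2.16 or more and 1.28 or more. With the CV filter, the first was called whichever array was left out, and the second lost its call on leaving out male replicate 1 or 2 or female replicate 1 or 3 (limma's adjusted p reached 0.110).

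**Figure D2:**
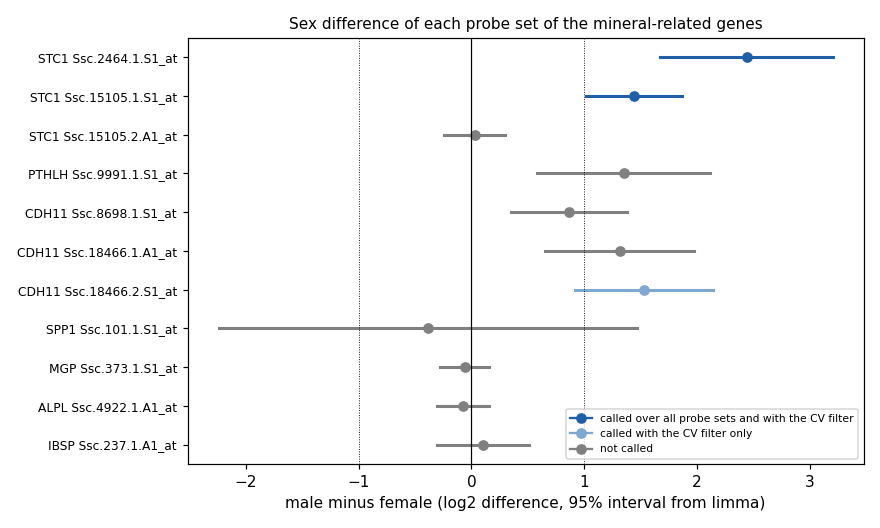
Male minus female difference (log2, x axis) of each probe set with its 95% interval from limma; dark blue marks calls over all probe sets and with the CV filter, light blue a call with the CV filter alone, grey no call, and dotted lines 2-fold. The intervals of 2 STC1 probe sets, PTHLH and the 3 CDH11 probe sets lie above 0, and that of SPP1 is the widest.

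PTHLH encodes parathyroid hormone-related protein, a local peptide that acts through the receptor PTH1R. It read 13.04, 12.86 and 11.92 in males and 11.01, 11.73 and 11.03 in females, at the 96.7th percentile of all probe sets by its mean. The sexes did not overlap, but male replicate 3 lay only 0.19 above female replicate 2. The difference was 1.35 (standard error 0.33), which is 2.55-fold with a 95% interval of 1.5-fold to 4.34-fold. It did not pass, with an adjusted p of 0.142 over all probe sets and 0.0568 with the CV filter, both from limma. It was called without male replicate 3 (difference 1.69, adjusted p = 0.0386 over all probe sets from limma), and with the CV filter it was also called without female replicate 2 (adjusted p = 0.0433 from limma).
The receptor had a lower mean in males, where the peptide had a higher one, and neither was called over all probe sets. Receptor and peptide were not tested against each other. PTH1R read 7.17, 7.35 and 8.22 in males and 7.83, 8.48 and 8.20 in females, and the sexes overlapped. Its difference was -0.59 (standard error 0.29, adjusted p = 0.363 from limma over all probe sets).

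CDH11, the cadherin named for its presence in osteoblasts, had higher means in males at all 3 of its probe sets. The brightest, Ssc.8698.1.S1_at, read 12.98, 12.55 and 12.19 in males and 11.44, 11.89 and 11.79 in females. Ssc.18466.1.A1_at read 10.57, 9.98 and 9.49 in males and 8.38, 8.97 and 8.76 in females. Ssc.18466.2.S1_at read 8.80, 8.27 and 7.82 in males and 6.69, 7.07 and 6.54 in females.
None of the 3 had overlapping sexes, and on each of them male replicate 1 was the highest array and female replicate 2 the highest of the females. The differences were 0.87 (standard error 0.22), 1.31 (0.28) and 1.53 (0.26), or 1.82-fold, 2.48-fold and 2.89-fold. Over all probe sets none passed (adjusted p = 0.152, 0.117 and 0.0732 from limma). With the CV filter, Ssc.18466.2.S1_at rose (adjusted p = 0.0311 from limma), Ssc.18466.1.A1_at did not pass (adjusted p = 0.0517 from limma), and Ssc.8698.1.S1_at, with a CV of 4.59%, was not kept by the filter, which needed 6.50%.
The call of Ssc.18466.2.S1_at was lost on leaving out male replicate 1 or 2 or female replicate 1 or 3 (limma's adjusted p with this filter reached 0.115), while the difference stayed at 1.28 to 1.77. Without male replicate 3, Ssc.18466.1.A1_at and Ssc.18466.2.S1_at were both called over all probe sets (adjusted p = 0.044 and 0.0309 from limma).

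STC1, PTHLH and CDH11 also shared the order of the arrays within each sex. At the 6 probe sets without overlap, male replicate 1 was the highest and male replicate 3 the lowest male array, and female replicate 2 was the highest female array. This order held at 10.5% of all probe sets, and at 21.1% of the 2655 probe sets that were higher in males without overlap. The mean of 13 measured endothelial markers, of 14 listed, had it too. That mean was 10.29, 9.96 and 9.36 in males and 8.93, 9.50 and 8.88 in females, so it overlapped between the sexes. Of these 13 markers, 11 had a higher mean in males (median difference 0.90), and ICAM2 and ESAM rose with the CV filter. ERG (difference -0.25) and KDR (-0.19, at a low mean of 4.45) had a lower mean in males. VWF had its highest value in female replicate 2 (11.33). PECAM1, an adhesion molecule of endothelial cells, read 12.61 to 13.69 in males and 11.83 to 12.28 in females, so this marker was high in the scraped leaflets. In whole leaflets, more cells of a type and more RNA per cell cannot be told apart. The part of endothelial RNA in the differences of STC1, PTHLH and CDH11 was not tested.
The mean of the cartilage markers ran the other way, but not every marker did. This mean over 6 measured of 9 listed genes was 8.15, 8.74 and 9.23 in males and 9.54, 9.19 and 9.39 in females, with male replicate 1 the lowest and male replicate 3 the highest male array. Of the 6, 2 had a higher mean in males, SOX9 (difference 0.57) and HAPLN1 (0.03). The largest differences were those of ACAN (-2.29) and COMP (-1.85), and the median was -0.23. ACAN and COMP fell with the CV filter (adjusted p = 0.0099 and 0.0495 from limma), without overlap of the sexes. Over all probe sets neither was called (adjusted p = 0.0691 and 0.176 from limma). The mean of 8 measured VIC and fibroblast markers, of 10 listed, was 12.73 to 12.99 in males and 12.97 to 13.12 in females, and 1 of the 8 had a higher mean in males.

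**Figure D3:**
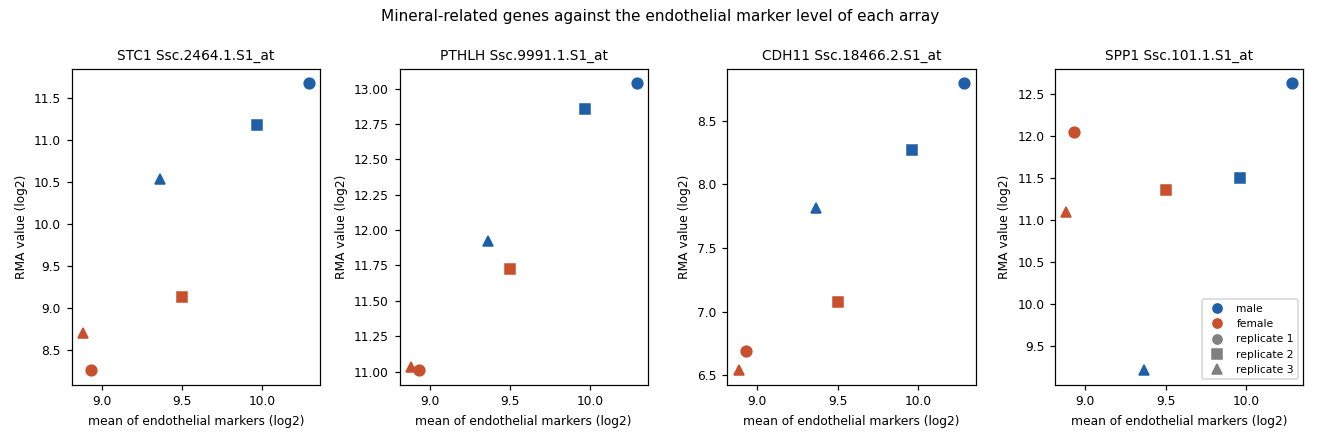
RMA value (log2, y axis) of STC1, PTHLH, CDH11 and SPP1 against the mean log2 value of 13 endothelial markers (x axis) on each array, males in blue and females in orange, with a symbol for each replicate. Male replicate 1 has the highest marker mean (10.29) and the highest value of all 4 genes, and male replicate 3 (9.36) has the lowest value of SPP1.

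SPP1, osteopontin, is a secreted phosphoprotein of bone and of macrophages. It stood apart by its spread and not by sex. It read 12.64, 11.50 and 9.21 in males and 12.05, 11.36 and 11.09 in females. Male replicate 1 was the highest and male replicate 3 the lowest of all 6 arrays, so the females lay inside the range of the males.
The male arrays spanned 10.8-fold and the female arrays 1.94-fold. The SD of SPP1 was 1.75 among males, at the 99.9th percentile of all probe sets, and 0.50 among females, at the 94.6th percentile. The difference of the means was -0.39 with a wide 95% interval of -2.24 to 1.47 (adjusted p = 0.847 from limma over all probe sets). It turned to 0.57 without male replicate 3 and was -1.15 without male replicate 1, so no direction can be given.
The mean of the macrophage markers spanned less. Over 5 measured genes of 10 listed it was 9.90, 10.08 and 9.70 in males and 9.99, 9.85 and 9.34 in females. CD163, a scavenger receptor of macrophages, read 11.91, 12.21 and 11.94 in males, where SPP1 spanned 3.43. Male replicate 3 was the lowest male array for AIF1 (11.38, 11.59 and 10.99) and C1QA (12.19, 12.35 and 11.56), and narrowly for CD14. It was not the lowest for CD163 or MARCO. Among females CD14 spanned 2.03, more than the 0.96 of SPP1. The acid phosphatase ACP5, of osteoclasts and some macrophages, read 9.82, 8.66 and 7.76 in males and 7.55, 9.16 and 7.52 in females, and female replicate 2 lay within the male range. The part of these cells in the spread of SPP1 was not tested.

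MGP, matrix Gla protein, was among the brightest probe sets of the array and the most even of these genes. It read 14.59, 14.64 and 14.64 in males and 14.63, 14.71 and 14.72 in females. The sexes overlapped, and the difference was -0.06 (95% interval -0.28 to 0.15, adjusted p = 0.786 from limma over all probe sets), or between 0.83-fold and 1.11-fold by that interval. The highest value of any probe set on any array was 15.06. Whether a difference is compressed so near the top of the scale was not tested.
ALPL, the tissue-nonspecific alkaline phosphatase, was low in both sexes. It read 4.73, 4.61 and 4.66 in males and 4.70, 4.70 and 4.83 in females, at the 15.4th percentile of all probe sets. The difference was -0.07 (95% interval -0.30 to 0.16, adjusted p = 0.751 from limma over all probe sets).
IBSP, bone sialoprotein, read 5.31, 5.52 and 5.58 in males and 5.62, 5.02 and 5.48 in females, at the 23.5th percentile. The sexes overlapped, and the difference was 0.10 (95% interval -0.31 to 0.51, adjusted p = 0.813 from limma over all probe sets). It turned to -0.08 without female replicate 2. For ALPL and IBSP a sex difference was not detectable at these low values, which does not show that there is none.
IBSP lies near SPP1 in the pig assembly Sscrofa11.1, with MEPE between them and DMP1 on the far side of IBSP. DMP1, a protein of the same mineral-binding family, was low as well, at 5.38, 5.25 and 5.28 in males and 5.15, 5.28 and 5.40 in females. The other defining markers of osteoblasts and osteocytes were level between the sexes. SP7, the transcription factor of osteoblasts, read 7.66 to 7.98 in males and 7.75 to 7.84 in females, and BGLAP, osteocalcin, read 6.16 to 6.42 and 6.10 to 6.54. PHEX read at most 3.91 on any array. The mean of these 4 markers, of 5 listed, was 5.76 to 5.86 in males and 5.66 to 5.85 in females.

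The genes around these hormones and matrix proteins were described through 9 lists of signalling, mineral handling and adhesion, with 79 measured genes and 121 probe sets in all. No probe set of these lists was called over all probe sets, where 30 had an unadjusted limma p under 0.05, as did 16.9% of all probe sets. The CV filter kept 25 of the 121, and of these 4 rose and none fell. Of all 2412 probe sets kept, 7.59% were called, 4.6% higher and 2.99% lower in males. That filter selects in part on the difference tested, so these 4 calls are not independent of it. The 121 probe sets had a median difference of -0.06, and 49 of them (40.5%) had a higher mean in males, as did 49.1% of all probe sets.

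Among 11 measured genes of PTH, calcitonin, vitamin D and FGF23 signalling, with 13 probe sets, the receptor CALCRL rose with the CV filter. It read 6.39, 6.21 and 5.51 in males and 4.53, 4.73 and 4.59 in females, where all 3 female arrays and male replicate 3 were low, under the 25th percentile (difference 1.42 against a low female level, limma's adjusted p = 0.0339 after the CV filter and 0.0641 over all probe sets). CALCRL was listed for its kinship with the calcitonin receptor. It serves adrenomedullin and is also a gene of endothelial cells. The list had a median difference of -0.05, with 5 probe sets higher and 8 lower in males.
NPPC encodes C-type natriuretic peptide, a growth signal of cartilage and bone, and rose with the CV filter, at 9.45, 9.45 and 8.52 in males and 7.32, 7.93 and 7.54 in females (difference 1.54, limma's adjusted p = 0.0334 after the CV filter and 0.087 over all probe sets). Its receptor NPR2 had differences of -0.18 and 0.03 at its probe sets, neither called.
Of 19 measured osteoblast transcription factors and BMP and WNT genes, with 32 probe sets, LEF1, a transcription factor of WNT signalling, rose with the CV filter. LEF1 was the called gene without the array order above, since male replicate 3 was its highest array, at 9.11, 8.96 and 9.99 in males and 8.30, 7.67 and 7.63 in females (difference 1.48, limma's adjusted p = 0.043 after the CV filter and 0.111 over all probe sets). In this list means were higher in males at 13 probe sets and lower at 19.
CDH13, an adhesion protein of endothelial and muscle cells that lacks a cytoplasmic part, rose with the CV filter, at 12.36, 11.09 and 10.81 in males and 8.89, 10.08 and 9.16 in females (difference 2.04, limma's adjusted p = 0.0294 after the CV filter and 0.125 over all probe sets). It was called in a list of 8 measured cadherins and catenins with 15 probe sets, 10 of them higher in males. CDH5, the endothelial cadherin whose gene lies near CDH11 in Sscrofa11.1, had differences of 0.90 and 1.12 at its probe sets without passing.
With 1 array fewer, the differences stayed at 1.25 to 1.69 for CALCRL, 1.39 to 1.85 for NPPC, 1.57 to 2.39 for CDH13 and 1.17 to 1.70 for LEF1, but most of the calls were lost. With the CV filter, CALCRL and NPPC lost their calls on leaving out male replicate 1 or 2 or female replicate 1 or 3 (limma's adjusted p reached 0.125 and 0.110). CDH13 lost its call on leaving out male replicate 1 or female replicate 1 or 3 (reaching 0.0916), and LEF1 on leaving out any array except female replicate 1 (reaching 0.118). Over all probe sets, CALCRL and NPPC were called without male replicate 3 (adjusted p = 0.00833 and 0.0232 from limma).

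Bone and mineral-binding matrix genes lay lower in males without any call. Of 30 probe sets of 14 genes, 26 had a lower mean in males and 4 a higher one, with a median difference of -0.26. The sexes did not overlap at 10 of the 30, all lower in males, where 11.4% of all probe sets were lower without overlap. The smallest p values were those of COL5A1 and DCN. COL5A1, a fibrillar collagen, at its brightest probe set read 12.27, 12.55 and 12.86 in males and 13.00, 13.06 and 13.27 in females (difference -0.55, adjusted p = 0.191 from limma over all probe sets). DCN, the small proteoglycan decorin, at its brighter probe set read 13.91, 14.12 and 14.12 in males and 14.28, 14.49 and 14.52 in females (difference -0.38, adjusted p = 0.197 from limma over all probe sets). The list shares DCN, LUM and POSTN with the VIC and fibroblast markers, whose means are given above, and their part in these differences was not tested.
The 6 measured receptors of osteopontin and bone sialoprotein had 9 probe sets with a median difference of -0.31, of which 6 had a lower and 3 a higher mean in males, and none was called. Of the 3 without overlap, 2 were lower in males, where 22.4% of all probe sets were without overlap. The integrin subunit ITGB3 had a mean of 9.73 ± 0.40 (SD, n = 3) in males and 8.53 ± 0.22 (SD, n = 3) in females without overlap (difference 1.20). It did not pass (adjusted p = 0.0812 over all probe sets and 0.0527 with the CV filter, both from limma). ITGA5 had a difference of 0.90 (adjusted p = 0.257 from limma over all probe sets). The usual partner of ITGB3, the subunit ITGAV, named after its values were seen, lay lower in males by its mean, with a difference of -0.37 (adjusted p = 0.309 from limma over all probe sets).
Genes of pyrophosphate and phosphate handling were near level, with a median of 0.00 over 10 probe sets of 8 genes. ENPP1, the enzyme that makes pyrophosphate outside the cell, read 10.56, 10.45 and 10.11 in males and 11.04, 10.76 and 10.93 in females. The sexes did not overlap, but the difference of -0.54 did not pass (adjusted p = 0.171 from limma over all probe sets), and neither did that of the transporter ABCC6 (0.35, adjusted p = 0.332).
The 6 probe sets of 5 genes of vitamin K use and Gla proteins, to which MGP belongs, all had a higher mean in males by small amounts, with differences of 0.10 to 0.22. PROS1, protein S, had the smallest p (difference 0.17, adjusted p = 0.436 from limma over all probe sets), followed by VKORC1L1 (0.22, adjusted p = 0.504). In the list of RANK ligand and osteoclast genes, 8 probe sets of 7 genes had a median of 0.00. The listed genes TNFSF10 (difference 0.85, adjusted p = 0.336) and ACP5 (0.67, adjusted p = 0.629) had the smallest p without passing limma's test over all probe sets.

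**Figure D4:**
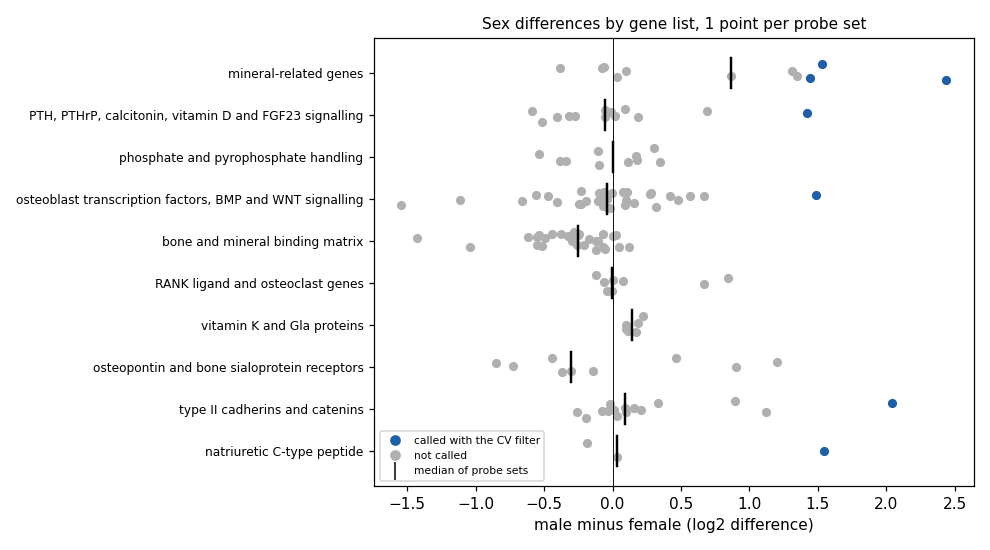
Male minus female difference (log2, x axis) of each probe set of the mineral-related genes and of the 9 lists around them; blue points were called with the CV filter, grey points were not, and black bars are medians. The mineral-related genes have a median of 0.87, the bone and mineral-binding matrix list has 26 of 30 points below 0, and 1 point each in 4 lists is called.

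The genes with profiles nearest to STC1 and SPP1 were found by the root mean square difference of log2 values over the 6 arrays, each value taken minus the mean of its probe set, among 10068 other probe sets with 1 gene name. For STC1 these were SLC9A3R2, SORBS2, CDH13, CDA and RSAD2, at 0.32, 0.32, 0.33, 0.37 and 0.38. SLC9A3R2, a scaffold protein of membrane transporters, read 11.46, 11.09 and 10.34 in males and 8.96, 9.18 and 8.57 in females (adjusted p = 0.0507 over all probe sets and 0.00990 with the CV filter, from limma). All 5 had their highest value in male replicate 1 and their highest female value in female replicate 2, as STC1 had.
For SPP1 they were TBXAS1, DLGAP5, TMEM158, SLC2A5 and HPSE, at 0.50, 0.63, 0.65, 0.66 and 0.67. TBXAS1, thromboxane synthase, read 7.24, 6.34 and 5.18 in males and 6.60, 6.02 and 6.31 in females. Male replicate 3 was the lowest of the 6 arrays for all 5, as for SPP1, but no other named gene came as near to SPP1 as those given came to STC1. All these profiles come from the same 6 RNA samples. The genes were chosen for their likeness to STC1 or SPP1 on these arrays, so a like order of arrays follows from the choice.

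**Figure D5:**
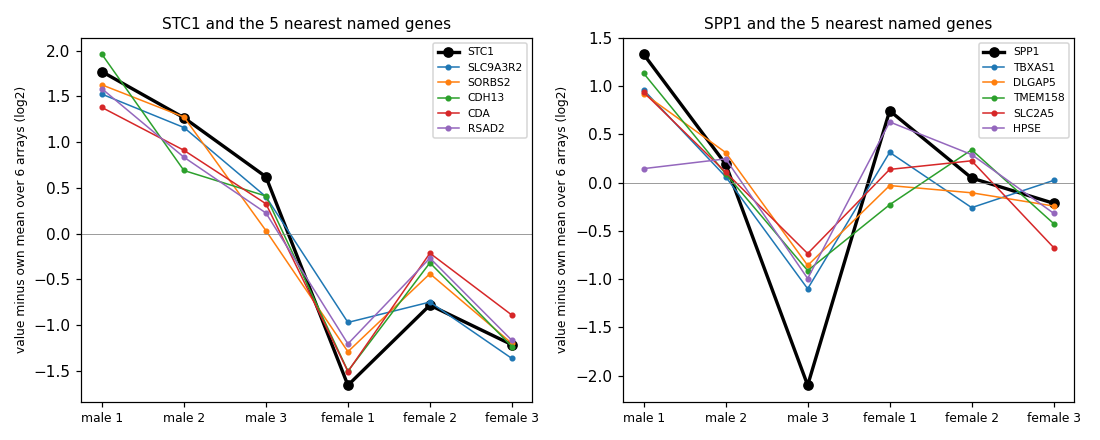
Log2 value of each array minus the mean of the probe set over the 6 arrays (y axis) for STC1 (left) and SPP1 (right) in black and for the 5 named genes nearest to each in colour. The STC1 group is high in males, while the SPP1 group dips at male replicate 3.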

How the data were processed

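Leaflet RNA (400 ng per sample) of 3 male and 3 female pigs had been hybridized to Affymetrix Porcine Genome Arrays. Per the labels, the deposited log2 values were made by the authors with RMA in R 2.12.0. They were used without further normalization, and the raw intensities were not used here. Of 24123 probe sets, 124 controls were left out of the comparison over all probe sets. The array annotation names 1 gene for 10069 of the others.

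Sexes were compared with limma 3.58.1 in R 4.3.3 (lmFit and eBayes, no covariate). The CV filter kept 2412 probe sets, those with the highest CV over all 6 arrays. This share of 10% and this direction follow earlier work on these data. The methods say only that a CV filter removed values unlike between replicates. Each array is 1 pig. Nothing in the labels ties male and female replicates of a number. The members, gene lists and tests were chosen with earlier results of these data known. Named genes were the members, the called genes of each list or else its 2 probe sets with the smallest p, the 5 nearest profiles, and markers beside a result. Marker means used the brightest probe set of a gene. The fits were tested on simulated data. Alternatives were an intensity trend, robust variances, array weights, median-centred arrays, no minimum fold, removal of low values, other CV filters, the replicate block and omission of each array. Plots used Python 3.11.15 and matplotlib 3.10.9.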

Additional observations from a re-analysis of the deposited data

How the results depend on the processing

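With array weights, 280 probe sets were called over all probe sets. Among them were 5 probe sets of the mineral-related genes (STC1, PTHLH and CDH11) and 4 probe sets of the surrounding lists. With array weights and the CV filter these counts were 530, 5 and 12. The weights rest on 3 arrays per sex, and their estimation with the CV filter stopped before it converged. The labels do not pair the samples by replicate number. The deviations of same-numbered arrays correlated at -0.10, 0.01 and 0.27, and those of the other pairs at -0.22 to 0.21. With 3 arrays per sex these correlations cannot decide whether same-numbered arrays share anything. With the number as a replicate block, 204 probe sets were called over all probe sets and 302 with the CV filter. Among them were 5 probe sets of the mineral-related genes with the CV filter and 2 probe sets of the lists over all probe sets. That block added PTHLH and CDH11 at Ssc.18466.1.A1_at to the calls with the CV filter, and CDH11 at Ssc.18466.2.S1_at to those over all probe sets. Of the mineral-related genes, 5 probe sets were also called when the CV filter kept 25% of the probe sets and when the CV was taken on unlogged values. The causes were not tested.

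When each array was left out in turn, 13 to 285 probe sets were called over all probe sets and 56 to 391 with the CV filter. For the mineral-related genes this was 0 to 5 and 1 to 5, and for the lists around them 0 to 3 and 0 to 6. The highest of these counts over all probe sets came without male replicate 3. Differences changed sign for SPP1 without male replicate 3 (range -1.15 to 0.57), for IBSP without female replicate 2 (-0.0768 to 0.22) and for STC1 at Ssc.15105.2.A1_at without male replicate 1 (-0.0406 to 0.12), none of them called. The intensity trend, robust variances, median-centred arrays, removal of low values and no minimum fold left each of these counts within 1.5 times. The difference of STC1 and STC2 that had been planned could not be computed, since STC2 had no probe set.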
